A study of Homo sapiens with 15 samples.

Results

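The clustered protocadherins were examined in 5 sublines of VCaP, a human prostate cancer cell line that carries the TMPRSS2-ERG fusion. The genes were selected by position and name alone, as every gene that the count tables place on chromosome 5 and whose symbol starts with PCDHA, PCDHB or PCDHG. This gave 60 of the 58381 counted genes, 16 in the alpha, 20 in the beta and 24 in the gamma cluster, between chr5:140786136 and chr5:141512981 on GRCh38. They include the pseudogenes PCDHA14, PCDHB17P, PCDHB18P, PCDHB19P, PCDHGB8P and PCDHGB9P, and PCDHB1-AS1, an antisense transcript that the symbol rule also takes. The rule reads no count, but the family was proposed with these counts already seen, so what follows describes these libraries and is no independent evidence that the family moves as a whole.

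Clustered protocadherins are cell-surface adhesion proteins of the cadherin superfamily, best known from neurons, where each cell uses its own combination of them as a surface identity. In the alpha and gamma clusters each gene has its own promoter and a large variable first exon, which encodes the extracellular and transmembrane parts and is spliced to constant exons shared by the whole cluster. The beta genes are single-exon genes with no constant part. Promoter choice is known to depend on DNA methylation and on looping of CTCF and cohesin to distal enhancers. The C-type genes PCDHAC1, PCDHAC2, PCDHGC3, PCDHGC4 and PCDHGC5 lie at the ends of their clusters and are known to be regulated apart from the others.

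Each subline was measured by bulk RNA-seq in 3 libraries, 15 in all, and each was grown out of an earlier one. VCaP-T was kept in 10 nM testosterone for 7 months. VCaP-CT came from VCaP-T after 10 months in low testosterone, for which the treatment protocol gives 0.1 nM, as the study's methods do, and the sample characteristics 10 nM. VCaP-CT-ER came from VCaP-CT and grew in 10 µM of the androgen receptor antagonist enzalutamide, VCaP-CT-BR came from VCaP-CT under the older antagonist bicalutamide, and VCaP-CT-BR-ER came from VCaP-CT-BR under enzalutamide. The characteristics of VCaP-CT-BR also name enzalutamide after bicalutamide, whereas the study's text describes long-term culture with bicalutamide alone for this subline. All 5 were grown in RPMI medium with DCC-FBS. Each is a single derivation, so a difference between sublines cannot be told apart from what a separate outgrowth would give, and the spread between libraries is that of one subline. The 4 later sublines are called CT, CT-ER, CT-BR and CT-BR-ER below.

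Libraries held 33665716 to 46935279 counted fragments and 26114 to 28623 genes with a count. All 9 markers of luminal prostate cells with the fusion were measured in every subline, with a summed level of 4460 to 9187 counts per 1000000 fragments (CPM, scaled by TMM). They did not move together. In CT 3 were higher and 6 lower than in VCaP-T, with log2 fold changes from −6.75 to 2.68. Against their parents 3 were higher and 5 lower in CT-ER, 1 and 7 in CT-BR and 4 and 0 in CT-BR-ER. The shares over all genes tested are given with each step below. The 8 neuron and neuroendocrine markers summed to 40.5 to 74.5 CPM, with GAP43 at 0 throughout. The 8 fibroblast markers summed to 7.65 to 25.5 CPM in VCaP-T, CT and CT-BR, but to 185 to 217 CPM in CT-ER and 217 to 251 CPM in CT-BR-ER. Nearly all of that was LUM, which encodes a collagen-binding proteoglycan and reached 196 and 236 CPM there, while COL1A2 was at 0 in every library and THY1 at a mean of at most 0.0138 CPM. DCN, another small proteoglycan gene, was low but also higher, at a mean of 0.0481 CPM in CT and 0.417 CPM in CT-ER (adjusted p = 8.7e-05, edgeR) and of 0.118 CPM in CT-BR and 0.406 CPM in CT-BR-ER (0.0044). DCN is named after its values were seen. Its means in CT and CT-BR were under the level of the filter on low counts, 0.26 CPM. That in CT was also under the level of 3 counts, 0.0639 to 0.0891 CPM. The adjusted p of DCN are therefore a description. Of the 8 fibroblast markers 4 were tested, and 2 were higher and 2 lower in CT-ER than in CT. In CT-BR-ER 2 were higher and 0 lower than in CT-BR. In CT 2 were higher and 1 lower than in VCaP-T, and in CT-BR 1 and 1 against CT. The part of any other cell type in the protocadherin levels was not tested.

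The clusters were a small part of these transcriptomes, with 2323 to 6785 fragments per library. The counter dropped fragments that overlapped exons of more than 1 gene, so the shared constant exons of the alpha and gamma clusters gave no counts, and a count stands mainly for the variable exon. A median of 49.5% of an alpha gene's exon length and 43.8% of a gamma gene's was shared with another gene, against 5.14% in the beta cluster. Strand was not used, so fragments of antisense transcripts cannot be told apart from those of the genes. The near-identical beta genes also lose fragments that align to more than 1 place. Of the 60 genes, 44 passed the filter on low counts (10 alpha, 17 beta and 17 gamma) and 16 did not, among them PCDHAC2, PCDHGC4 and PCDHGC5. Of those 44, 24 were above the filter level in every subline and 7 in at most 1, so a gene that passed only through the subline where it was high had to differ.

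Promoters of the clusters are known to carry a short conserved element with the core CGCT. Promoters of 47 of the 60 genes were in the RefSeq set used here (GRCh38.p14, 250 bases before to 50 after each start), with 13 alpha, 14 beta and 20 gamma genes. In each cluster the 8-letter word found in the most promoters, read on the plus strand, was taken. Where words tied, the one in the fewest of all promoters was kept. This word held the core in every cluster, and promoters with it were then counted on both strands. It was GTGGCGCT in 13 of 14 beta genes, ATGTCGCT in 9 of 13 alpha genes and GCCGCTGT in 11 of 20 gamma genes, and none of the 3 words was in a promoter of another cluster. Of all 35116 promoters of this length, 1.15%, 0.234% and 1.63% held them. These words were picked because they were common in the clusters and, among tied words, rare over all promoters. The shares and the absence from the other clusters are therefore a description. The windows below end before the start site and carry the word in capitals. The beta set pairs PCDHB5 and PCDHB4, which lost little in the second enzalutamide subline, with PCDHB3, PCDHB16 and PCDHB10, which fell in both.
PCDHB4, chr5:141121709-141121768, plus strand: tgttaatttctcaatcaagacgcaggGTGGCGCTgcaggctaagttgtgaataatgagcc
PCDHB5, chr5:141135165-141135205, plus strand: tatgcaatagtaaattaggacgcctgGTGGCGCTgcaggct
PCDHB3, chr5:141100379-141100438, plus strand: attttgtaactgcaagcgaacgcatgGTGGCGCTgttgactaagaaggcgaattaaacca
PCDHB16, chr5:141182296-141182355, plus strand: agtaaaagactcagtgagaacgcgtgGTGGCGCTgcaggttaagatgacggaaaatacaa
PCDHB10, chr5:141192285-141192344, plus strand: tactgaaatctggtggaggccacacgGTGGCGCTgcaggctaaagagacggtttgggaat
The alpha set shows PCDHA8, PCDHA10 and PCDHA12, which all fell from VCaP-T to CT.
PCDHA8, chr5:140841116-140841175, plus strand: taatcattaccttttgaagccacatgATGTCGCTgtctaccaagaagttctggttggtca
PCDHA10, chr5:140855827-140855886, plus strand: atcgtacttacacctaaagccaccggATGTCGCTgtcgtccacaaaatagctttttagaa
PCDHA12, chr5:140875230-140875289, plus strand: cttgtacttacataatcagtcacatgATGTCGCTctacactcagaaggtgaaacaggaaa
The gamma set places PCDHGA9, which rose in CT-ER, beside PCDHGA1, PCDHGB4 and PCDHGA10, which fell there, and the C-type gene PCDHGC3.
PCDHGA9, chr5:141402702-141402761, plus strand: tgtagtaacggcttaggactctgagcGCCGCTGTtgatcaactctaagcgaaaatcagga
PCDHGA1, chr5:141330391-141330450, plus strand: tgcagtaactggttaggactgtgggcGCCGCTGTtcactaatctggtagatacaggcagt
PCDHGB4, chr5:141387605-141387664, plus strand: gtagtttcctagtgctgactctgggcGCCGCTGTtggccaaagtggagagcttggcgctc
PCDHGA10, chr5:141412919-141412978, plus strand: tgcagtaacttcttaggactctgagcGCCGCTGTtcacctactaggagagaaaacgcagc
PCDHGC3, chr5:141475868-141475927, plus strand: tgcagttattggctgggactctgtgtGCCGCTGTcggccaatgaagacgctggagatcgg
Only promoters that hold their cluster's word are shown, so the shared letters follow from that choice. The word began 42 to 85 bases before the start in the alpha promoters and 1 to 83 bases before it in the beta promoters.

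Summed over each cluster, the levels moved apart from VCaP-T to CT, were close in CT and CT-BR, and were lower after either enzalutamide step. The alpha cluster stood at 30.5, 30.3 and 33.5 CPM in the VCaP-T libraries and at 9.21, 11.05 and 10.5 CPM in CT. The beta cluster went the other way, from 53.8, 52.7 and 53.7 CPM to 140, 146 and 133 CPM. The gamma cluster was at 23.8, 24.3 and 25.4 CPM in VCaP-T and 27.3, 31.9 and 31.2 CPM in CT. No library of one subline reached the other's range in any of the 3 clusters. In bulk libraries fewer cells that use a gene and less RNA per cell cannot be told apart. In CT-ER the means were 7.16 ± 0.39, 34.8 ± 1.1 and 14.6 ± 0.46 CPM for alpha, beta and gamma (SD, n = 3). CT-BR, at 10.5 ± 1.7, 127 ± 2.2 and 29.96 ± 1.2 CPM, lay close to CT. CT-BR-ER was lower than its parent in all 3 clusters, at 5.73 ± 0.65, 71.4 ± 2.2 and 16.9 ± 0.86 CPM. The beta sum in CT-BR-ER was thus above that of VCaP-T, and that of CT-ER below it.

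**Figure D1:**
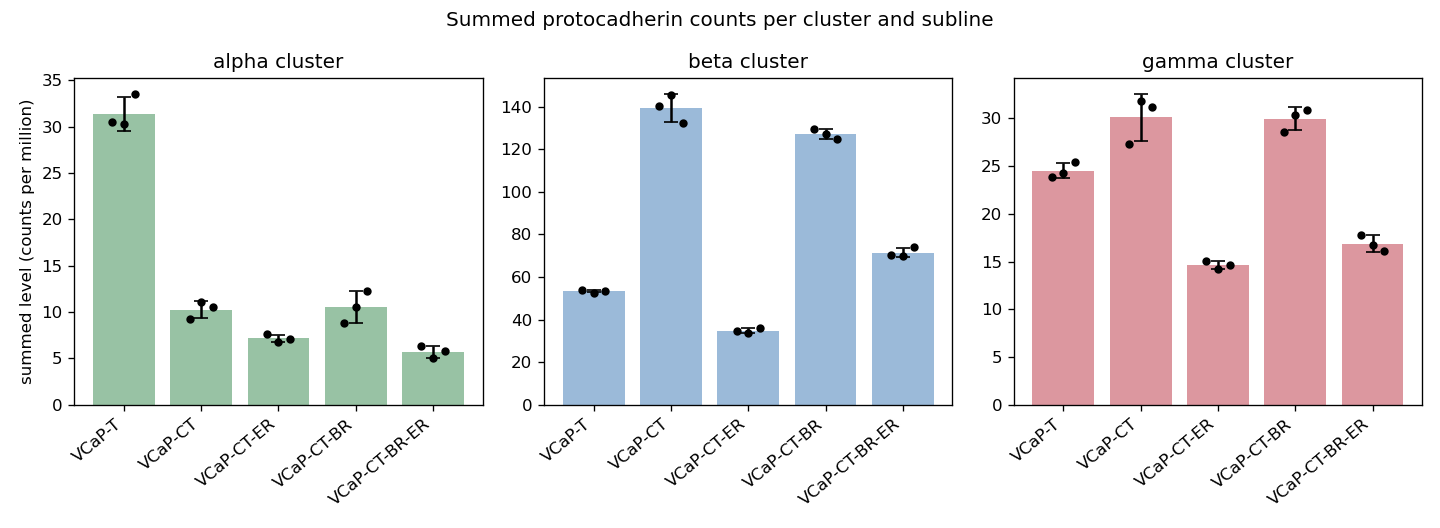
Summed level in CPM (vertical axis) of the alpha, beta and gamma clusters in each subline (horizontal axis). Bars are means of 3 libraries, error bars 1 SD and points the libraries. The alpha sum fell from 31.4 to 10.3 CPM between VCaP-T and CT, while the beta sum rose from 53.4 to 139 CPM and then stood at 34.8 CPM in CT-ER.

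The genes around the clusters moved as well. Within 1 Mb of the first or last clustered gene, 42 other genes were tested. Of these, 25 were higher and 6 lower in CT than in VCaP-T (median log2 fold change 0.41, quartiles 0.0085 and 0.68). In CT-ER, 36 were lower than in CT and 1 higher (median −0.80, quartiles −1.37 and −0.51), and 16 of the 42 were called with at least a 2-fold change. In CT-BR-ER 32 were lower than in CT-BR and none higher (median −0.60, quartiles −0.90 and −0.28). TAF7, a general transcription factor gene that lies between the beta and gamma clusters, averaged 87.4, 115, 80.8, 126 and 79.6 CPM in VCaP-T, CT, CT-ER, CT-BR and CT-BR-ER. HDAC3, a histone deacetylase gene, averaged 55.9, 80.04, 46.2, 76.2 and 56.6 CPM. Both genes, named after their values were seen, were highest in CT and CT-BR, as was the beta sum. Over windows of 5 Mb along chromosome 5 that held at least 10 other tested genes, 31 in all, the one that starts at 140 Mb had the lowest median change but 1 in both enzalutamide steps, −0.78 in CT-ER and −0.62 in CT-BR-ER, against −0.31 and −0.25 for the median window. Gene copy number was not measured in these files, and its part in the protocadherin levels was not tested. Each cluster's change is therefore given below beside that of the 42 neighbours. Where a gene's interval is set against the neighbours' median, the spread of the neighbours is left out, so a gene outside that median can still lie within their range. The share of all genes tested whose interval excludes that median was not taken, so these counts are a description.

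From VCaP-T to CT, the clusters split. Of the genes tested anywhere, 33.1% were called higher and 32.2% lower at an adjusted p under 0.05 (edgeR), with a median log2 fold change of 0.026. Among the alpha genes 9 of 10 were lower and none was higher, with a median of −1.77. Among the beta genes 13 of 17 were higher and none lower, with a median of 1.17, and of the gamma genes 9 of 17 were higher and 1 lower, with a median of 0.48. The 95% interval of 9 alpha genes lay wholly below the neighbours' median and that of 11 beta genes wholly above it. Both counts of 9 alpha genes include PCDHA1 and PCDHA8, which passed the filter through VCaP-T alone and so had to be lower. The 9 gamma genes called higher include PCDHGA11, which passed the filter largely through libraries of CT, so a rise was favoured. For 13 of 17 gamma genes the interval included the neighbours' median.

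In the alpha cluster, PCDHA11 (chr5:140868183-141012344) held the most fragments, 36.8% to 39.7% of the cluster's in VCaP-T. Its level was 12.1, 11.1 and 12.8 CPM there and 4.20, 4.78 and 4.58 CPM in CT. The groups did not overlap, and the log2 fold change was −1.41 ± 0.11 (SE, adjusted p = 2.2e-10). PCDHA10 fell from 5.59, 6.18 and 6.33 CPM to 1.42, 1.77 and 1.68 CPM, a change of −1.89 ± 0.13 on the log2 scale. PCDHA12 fell from 4.57, 4.6001 and 5.70 CPM to 1.63, 1.51 and 1.12 CPM, a change of −1.81 ± 0.17. PCDHA13 fell by 2.13 ± 0.24 on the log2 scale, from a mean of 2.60 to 0.595 CPM. All of these are alternate alpha genes whose proteins differ in their extracellular part. PCDHA2 fell by 1.73 ± 0.34 on the log2 scale. PCDHA8 and PCDHA1 passed the filter through VCaP-T alone, so they had to differ. PCDHA8 had 19, 18 and 29 fragments there and 2, 2 and 3 in CT, a ratio of 8.49 after scaling for library size, with an exact 95% interval from 3.90 to 21.9 that covers counting error only. PCDHA1 had 25, 26 and 31 fragments against 1, 3 and 7, a ratio of 6.71 (3.56 to 13.97). The C-type gene PCDHAC1 fell by 1.13 ± 0.29, from a mean of 0.976 to 0.439 CPM, so it moved with its cluster. PCDHA7, named after its values were seen, was the exception among the tested alpha genes, with −0.04 and a 95% interval from −0.72 to 0.65.

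In the beta cluster, PCDHB10 had the highest fold change. Its level was 1.79, 1.61 and 1.81 CPM in VCaP-T and 9.78, 10.7 and 9.20 CPM in CT, a log2 fold change of 2.51 ± 0.11 (SE, adjusted p = 1.4e-14, edgeR). PCDHB14 rose from 3.41, 2.67 and 3.30 CPM to 16.8, 17.9 and 17.0 CPM (2.46 ± 0.09). PCDHB11 rose from 5.95, 6.59 and 5.51 CPM to 27.1, 30.1 and 27.6 CPM (2.23 ± 0.08). These genes, with PCDHB12 (2.21 ± 0.21), lie next to each other along the chromosome, with PCDHB13 (1.26 ± 0.20) before PCDHB14. Further upstream PCDHB5 (chr5:141135218-141138625) rose from 8.29, 8.49 and 8.95 CPM to 29.3, 29.0 and 25.7 CPM (1.71 ± 0.07), and PCDHB16 rose by the same 1.71 ± 0.15. PCDHB2 (0.81 ± 0.08) and PCDHB3 (0.84 ± 0.12), at the upstream end, rose less. PCDHB6, PCDHB7 and PCDHB19P, named after their values were seen, were not called, and PCDHB8 did not follow. It had 12.4, 11.98 and 13.2 CPM in VCaP-T and 13.0, 13.8 and 11.5 CPM in CT, and its log2 fold change of 0.02 had a 95% interval from −0.14 to 0.19. Its share of the beta fragments went from 23.5% ± 1.0 to 9.14% ± 0.42 (SD, n = 3) as most beta genes rose. The share of PCDHB7, next to it upstream, went from 3.61% ± 0.40 to 1.59% ± 0.11.

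Compared per kilobase of exon that no other gene shares, PCDHB8 was the highest clustered gene in VCaP-T (4.98 CPM per kb), ahead of PCDHA11 (3.57) and PCDHB5 (2.95). In CT the order was PCDHB5 (9.64 CPM per kb), PCDHB11 (6.94), PCDHB8 (5.07) and PCDHB2 (4.06), with no alpha gene among the 8 highest.

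In the gamma cluster the median change was near that of the neighbours. PCDHGA10 rose from 0.303, 0.381 and 0.282 CPM to 0.664, 0.712 and 0.978 CPM (log2 fold change 1.29 ± 0.30) and PCDHGA1 from a mean of 0.694 to 1.63 CPM (1.23 ± 0.25). PCDHGB4, among the gamma genes with the most fragments, was at 3.14, 2.89 and 3.65 CPM and then at 3.92, 4.84 and 4.78 CPM (0.48 ± 0.15), an amount near the neighbours' median. PCDHGC3, the gamma gene with the most fragments in VCaP-T, was the single one called lower, from 3.496, 4.63 and 4.54 CPM to 2.78, 3.19 and 2.91 CPM (−0.51 ± 0.14). PCDHGC4 and PCDHGC5 had at most 4 fragments in any library. The least abundant C-type genes were therefore not measurable at this depth.

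**Figure D2:**
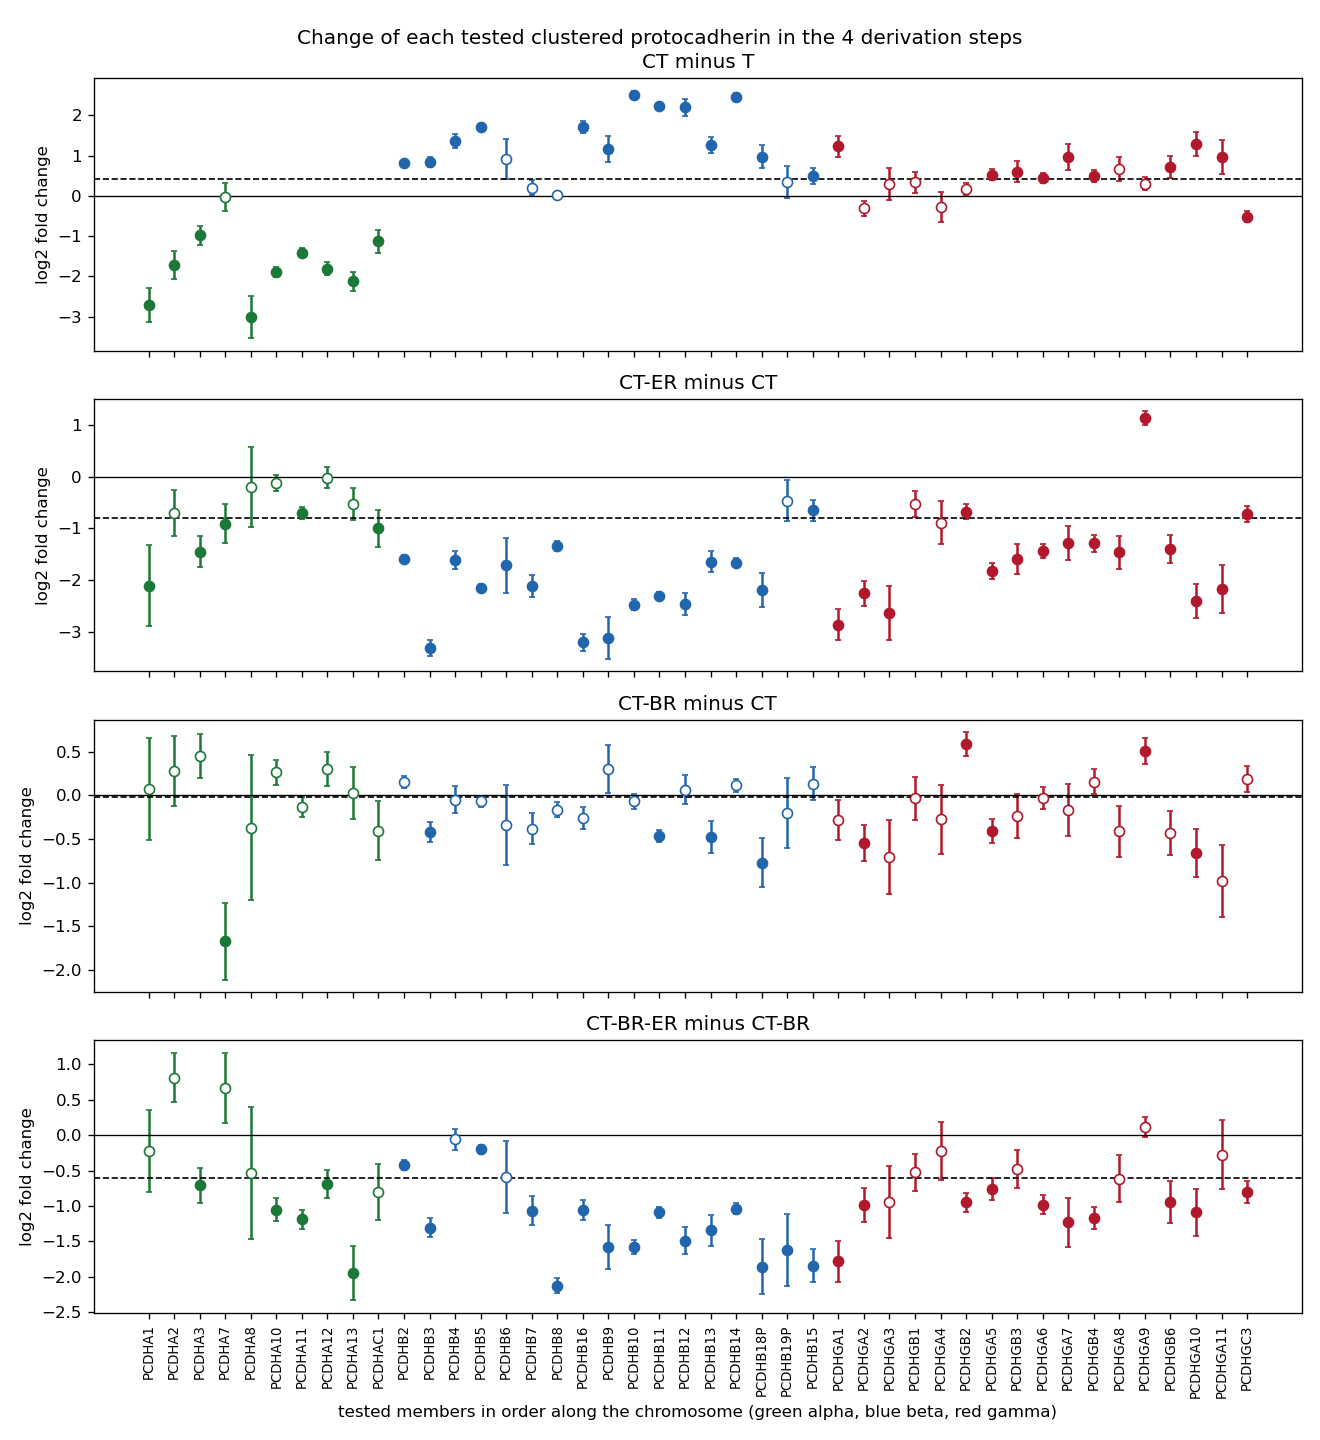
Log2 fold change (vertical axis) of the 44 tested genes in order along the chromosome (horizontal axis) at each step. Bars are 1 SE, filled points passed an adjusted p under 0.05 and the dashed line is the median of the 42 neighbours. At the first step 9 of 10 alpha genes were lower and 13 of 17 beta genes higher. The 9 include PCDHA1 and PCDHA8, which passed the filter through VCaP-T alone and so had to be lower. In CT-ER 35 of the 44 were lower than in CT. The 35 include PCDHA7, PCDHB6 and PCDHGA11, which passed the filter largely through libraries of CT, so a fall was favoured.

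Under enzalutamide from CT, the beta and gamma genes were lower nearly throughout. Of all genes tested, 29.6% were called higher and 31.2% lower, with a median log2 fold change of −0.019. Of the 44 protocadherins 35 were lower and 1, PCDHGA9, was higher. By cluster, 16 of 17 beta genes were lower (median −2.12), 14 of 17 gamma genes (median −1.44) and 5 of 10 alpha genes (median −0.70). The neighbours' median was −0.80, with quartiles of −1.37 and −0.51. The intervals of 14 beta and 11 gamma genes lay wholly below that median, against 1 alpha gene. The 35 include PCDHA7, PCDHB6 and PCDHGA11, which were over the filter level in all 3 libraries of no subline. These genes passed the filter largely through libraries of CT, so a fall from CT was favoured. This comparison and the one before share the CT libraries.

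PCDHB3 had the strongest fall. It went from 7.79, 7.83 and 7.10 CPM in CT to 0.642, 0.648 and 1.02 CPM in CT-ER, a log2 fold change of −3.32 ± 0.16 (SE, adjusted p = 9.6e-14, edgeR) and a 9.96-fold difference. PCDHB16 followed with −3.21 ± 0.17, from 7.004, 6.12 and 5.98 CPM to 0.518, 0.648 and 0.919 CPM. PCDHB9, a low gene, fell by 3.13 ± 0.41 on the log2 scale. PCDHB5 and PCDHB11, with the most fragments in CT, fell to 6.15, 6.68 and 6.14 CPM and to 5.80, 5.39 and 5.89 CPM, changes of −2.15 ± 0.07 and −2.31 ± 0.08. PCDHB5 ended below its VCaP-T libraries and PCDHB11 overlapped them. PCDHB14 fell less (−1.67 ± 0.09), and at 5.51, 5.54 and 5.24 CPM stayed above each VCaP-T library. PCDHB8, flat at the step before, was at 4.95, 4.80 and 5.34 CPM (−1.34 ± 0.09). The pseudogene PCDHB18P fell as well (−2.20 ± 0.33).

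PCDHGA9 went against its cluster. Its level was 1.36, 1.45 and 1.54 CPM in CT and 3.00, 2.92 and 3.68 CPM in CT-ER. The groups did not overlap, and the log2 fold change was 1.13 ± 0.14 (SE, adjusted p = 3.5e-07, edgeR). Its share of the gamma fragments went from 4.82% ± 0.23 to 21.9% ± 2.8 (SD, n = 3). Genes on both sides of it fell, PCDHGA10 from a mean of 0.785 to 0.147 CPM (−2.40 ± 0.33) and PCDHGB4 from 4.52 to 1.83 CPM (−1.29 ± 0.16). The gamma genes at the upstream end also fell, PCDHGA1 (−2.87 ± 0.30), PCDHGA3 (−2.64 ± 0.53) and PCDHGA2 (−2.26 ± 0.25). PCDHGA3 was a low gene, with 16, 21 and 17 fragments in CT and 5, 4 and 2 in CT-ER. Only in CT were all 3 of its libraries over the filter level. PCDHGC3 (−0.72 ± 0.16) and PCDHGB2 (−0.68 ± 0.15) fell by about the neighbours' median.

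Among the alpha genes, PCDHA11 fell from a mean of 4.52 to 2.77 CPM (−0.70 ± 0.12). PCDHA12, at 1.43, 1.21 and 1.59 CPM, overlapped CT (−0.01, 95% interval −0.39 to 0.37), as did PCDHA10 at 1.49, 1.61 and 1.37 CPM (−0.12, −0.42 to 0.17). Both intervals lay above the neighbours' median. The calls of the low genes PCDHA1 (1 fragment in each CT-ER library) and PCDHAC1 rested on single libraries. PCDHA1 was called at an adjusted p of 0.024, which was 0.061 to 0.27 when CT replicate 3, CT-ER replicate 1 or CT-ER replicate 2 was left out. PCDHAC1 was called at 0.020, which was 0.052 to 0.12 without CT replicate 2, CT replicate 3 or CT-ER replicate 3.

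Between CT and CT-BR few protocadherins differed. Of all genes tested, 26.1% were called higher and 27.0% lower. Of the 44 protocadherins 2 were higher and 8 lower, with medians of 0.05, −0.17 and −0.27 in the alpha, beta and gamma cluster and −0.02 among the neighbours. The 8 include PCDHA7, which passed the filter largely through libraries of CT, so a fall was favoured. PCDHGB2 was at 4.98, 4.42 and 5.38 CPM, above its 3.26, 3.53 and 3.05 CPM in CT (0.59 ± 0.14), and PCDHGA9 at 2.20, 1.99 and 1.98 CPM (0.50 ± 0.15). PCDHB11 was lower, at 21.4, 20.1 and 19.7 CPM (−0.47 ± 0.07), and so was PCDHB3, at 4.95, 5.52 and 6.47 CPM (−0.42 ± 0.12). PCDHB5, at 26.6, 27.1 and 26.3 CPM, gave −0.07 with a 95% interval from −0.19 to 0.05. The number of calls fell from 10 to 6 when CT-BR replicate 1 was left out.

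Under enzalutamide from CT-BR, the clusters fell again, by other amounts per gene. In the beta cluster 14 genes were lower in both enzalutamide steps, 87.5% of those lower in CT-ER and 93.3% of those lower here. In the gamma cluster 10 were, 71.4% and 100% of the lists. The share of all genes lower in both steps was not taken. Of the 42 neighbours, 36 were lower in CT-ER and 32 here, so the overlap is a description and not particular to the protocadherins. Of all genes tested, 21.2% were called higher and 21.7% lower, with a median log2 fold change of 0.0030. None of the 44 protocadherins was higher, and 30 were lower by edgeR. They were 15 of 17 beta genes (median −1.31), 10 of 17 gamma genes (median −0.94) and 5 of 10 alpha genes (median −0.70). The neighbours' median was −0.60. The interval of 13 beta genes lay wholly below that value and that of 3 wholly above it, while for 12 of 17 gamma genes it included that value.

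PCDHB8 had the strongest fall at this step, from 11.1, 11.4 and 11.6 CPM in CT-BR to 2.24, 2.90 and 2.70 CPM in CT-BR-ER (−2.13 ± 0.10, adjusted p = 5.3e-13, edgeR). PCDHB15 fell from 1.27, 1.05 and 1.41 CPM to 0.267, 0.380 and 0.393 CPM (−1.84 ± 0.23) and PCDHB10 from 9.41, 9.92 and 8.97 CPM to 3.16, 2.93 and 3.36 CPM (−1.58 ± 0.10). PCDHB11 fell by 1.09 ± 0.07 and PCDHB14 by 1.04 ± 0.08 on the log2 scale. Toward the upstream end of the cluster 3 genes, PCDHB2, PCDHB4 and PCDHB5, changed by less than the neighbours' median, while PCDHB3 among them fell by 1.31 ± 0.14. PCDHB5 was at 23.4, 23.6 and 22.8 CPM, against 26.6, 27.1 and 26.3 CPM in its parent (−0.20 ± 0.06). This small fall was called at an adjusted p of 0.015, which was 0.061 and 0.067 without CT-BR replicate 2 and CT-BR-ER replicate 3. PCDHB4, at 2.96, 2.74 and 3.57 CPM against 3.32, 3.32 and 3.02 CPM, overlapped its parent (−0.06, 95% interval −0.35 to 0.23; it is named here after its values were seen). PCDHB2 fell from a mean of 15.8 to 11.8 CPM (−0.42 ± 0.07). PCDHB5 thus held 32.6% ± 1.6 of the beta fragments in CT-BR-ER, up from 21.0% ± 0.37 (SD, n = 3). Per kilobase of unshared exon it stood at 8.003 CPM, ahead of PCDHB2 at 3.36, while in CT-ER PCDHB5 (2.18 CPM per kb) and PCDHB8 (1.997) were next to each other.

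The spread of beta usage narrowed with it. The effective number of beta genes, which is the exponential of the Shannon entropy of their shares and equals the count of genes if all were equally used, was 9.94 ± 0.20 in VCaP-T, 9.94 ± 0.18 in CT, 9.604 ± 0.37 in CT-ER and 9.89 ± 0.019 in CT-BR, but 7.99 ± 0.30 in CT-BR-ER (SD, n = 3). In the alpha cluster PCDHA13 fell from 0.544, 0.576 and 0.694 CPM to 0.146, 0.190 and 0.131 CPM (−1.95 ± 0.39), PCDHA11 from 3.58, 3.95 and 4.81 CPM to 1.97, 1.5995 and 1.84 CPM (−1.19 ± 0.13) and PCDHA10 by 1.05 ± 0.16 on the log2 scale. PCDHA2 at the upstream end was at 0.802, 0.434 and 0.603 CPM against 0.207, 0.392 and 0.446 CPM (0.81 ± 0.34), which did not pass the test. In the gamma cluster PCDHGA1 fell by 1.78 ± 0.28, PCDHGB4 by 1.17 ± 0.15 and PCDHGC3 by 0.81 ± 0.16 on the log2 scale. PCDHGA9, at 2.14, 2.22 and 2.33 CPM, overlapped its parent (0.12, 95% interval −0.15 to 0.38).

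**Figure D3:**
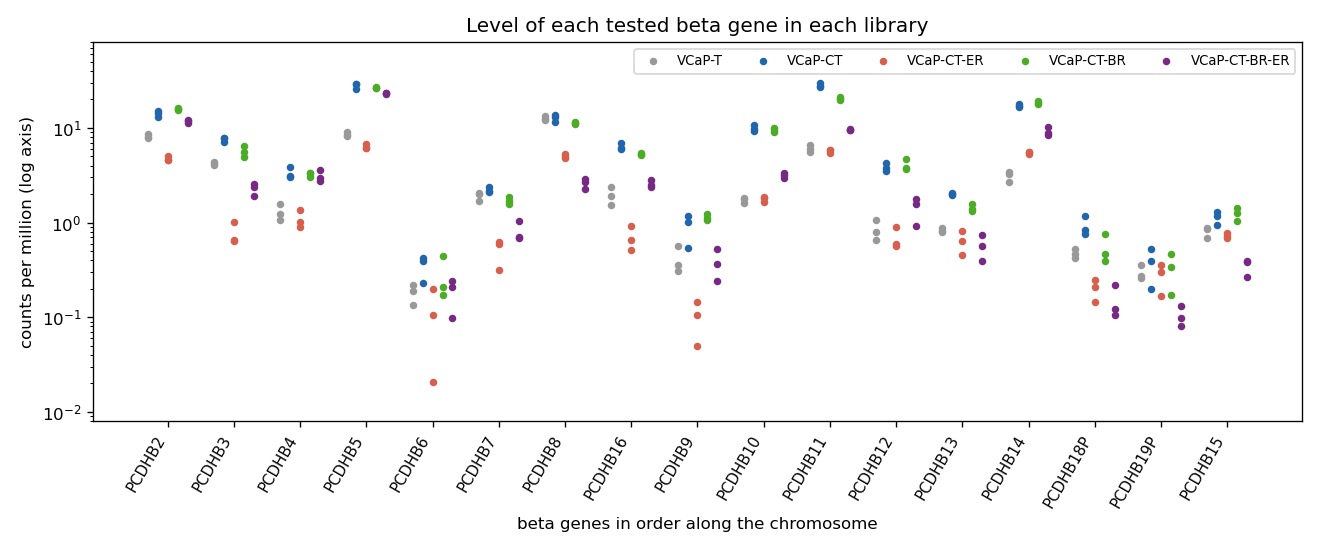
Level in CPM (vertical log axis) of each tested beta gene, in order along the chromosome (horizontal axis), with 1 point per library coloured by subline. PCDHB5 stayed at 22.8 to 23.6 CPM in CT-BR-ER, while PCDHB8 fell from 11.1 to 11.6 CPM in CT-BR to 2.24 to 2.90 CPM.

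The 2 enzalutamide steps were compared gene by gene in the same fit. Of all genes tested, 24.5% had a higher and 25.2% a lower change in the step from CT than in the step from CT-BR, and of the protocadherins 7 and 18 of 44. In the beta cluster 11 genes fell further in the step from CT, among them PCDHB16 (difference −2.16 ± 0.23 on the log2 scale), PCDHB3 (−2.01 ± 0.22), PCDHB5 (−1.95 ± 0.09) and PCDHB11 (−1.22 ± 0.11). PCDHB15 (1.20 ± 0.32) and PCDHB8 (0.78 ± 0.14) fell further in the step from CT-BR. PCDHGA9 differed by 1.02 ± 0.19 and PCDHA10 by 0.93 ± 0.22. Of the neighbours, 4 had a higher and 21 a lower change, with a median of −0.37. The difference followed the order of the genes in 2 clusters. Its Spearman correlation with position was 0.71 over 17 beta genes and 0.75 over 10 alpha genes, against 0.17 over 17 gamma genes. These beta and alpha values were the highest of the correlations taken. In size, the −0.72 of the alpha genes in the step from CT-BR was above the beta value. For the beta and alpha genes it was 0.21 and 0.42 in the step from CT, and −0.64 and −0.72 in the step from CT-BR. PCDHA1, PCDHA2, PCDHA7 and PCDHA8, toward the upstream end of the alpha cluster, were also low genes, and position was not separated from level. These are descriptions across adjoining genes of the same libraries, which are not independent.

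**Figure D4:**
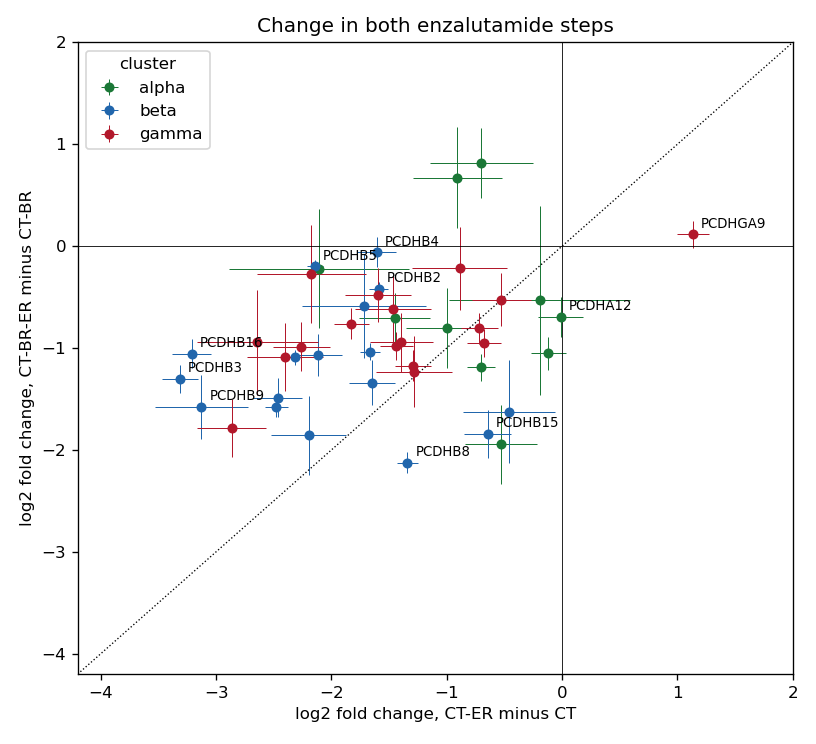
Log2 fold change from CT to CT-ER (horizontal axis) against that from CT-BR to CT-BR-ER (vertical axis) for the 44 tested genes, with bars of 1 SE and a dotted line of equal change. PCDHB5, PCDHB3 and PCDHB16 lie above the line (stronger fall from CT), PCDHB8 and PCDHB15 below it, and PCDHGA9 is the single gene well to the right of 0.

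Known regulators of the clusters were measured in the same libraries. Of 22 listed, 21 were tested, and 10 were higher and 4 lower in CT than in VCaP-T, 11 and 4 in CT-ER, 14 and 4 in CT-BR and 5 and 8 in CT-BR-ER, each against its parent. Over all genes tested the shares higher and lower were 33.1% and 32.2%, 29.6% and 31.2%, 26.1% and 27.0%, and 21.2% and 21.7%, which are also the background of the lists that follow. CTCF, the insulator protein that binds these promoters, averaged 64.1, 80.2, 98.8, 92.2 and 101 CPM in VCaP-T, CT, CT-ER, CT-BR and CT-BR-ER. The cohesin subunit gene RAD21 averaged 376, 376, 536, 567 and 548 CPM. Against their parents, CTCF changed by 0.30 in CT-ER and 0.14 in CT-BR-ER on the log2 scale, and RAD21 by 0.51 and −0.05. The last of these did not pass the test. SMCHD1, a chromatin protein that represses clustered protocadherins, averaged 104, 71.5, 94.1, 132 and 110 CPM, lowest in CT. The DNA methyltransferase genes DNMT3A and DNMT3B averaged 31.3 and 7.30 CPM in VCaP-T, and 44.99 and 10.2 CPM in CT. TET1, which encodes a methylcytosine oxidase, went from 3.95 to 9.56 CPM between them (1.27 on the log2 scale) and to 5.42 CPM in CT-ER (−0.82). REST, a repressor of neuronal genes, went from 14.5 to 31.7 CPM (1.13). The part of any of these in the protocadherin levels was not tested.

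Of 14 genes for kinases, adaptors and actin regulators known to act on or with the cytoplasmic tails, all were tested. In CT 7 were higher and 5 lower than in VCaP-T, in CT-ER 6 and 7, in CT-BR 4 and 5 and in CT-BR-ER 5 and 3. MARCKS, an actin-binding substrate of protein kinase C, averaged 198 CPM in VCaP-T, 97.6 CPM in CT and 316 CPM in CT-ER (1.70 on the log2 scale for the last step). PRKCA, a kinase acting on it, averaged 62.6, 26.5 and 14.6 CPM in these sublines.

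Protocadherins and related large cadherins outside the clusters did not share one pattern. Of 20 listed, 11 were tested, with 4 higher and 6 lower in CT, 3 and 6 in CT-ER, 3 and 5 in CT-BR and 4 and 2 in CT-BR-ER. PCDH19, a delta protocadherin, averaged 0.0483 CPM in VCaP-T, 0.656 in CT, 159 in CT-ER, 0.846 in CT-BR and 16.6 in CT-BR-ER. It was thus higher in both enzalutamide sublines than in their parents (7.92 and 4.29 on the log2 scale), while 35 and 30 of the 44 tested clustered genes were lower. PCDH1, which is also 1 of the 42 neighbours, averaged 115 CPM in VCaP-T and 52.3 CPM in CT (−1.13), against the rise of most neighbours.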

How the data were processed

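RNA of 5 VCaP sublines was measured by paired-end RNA-seq in 3 libraries each. Per the file headers, the authors deposited raw fragment counts per gene from featureCounts 1.6.2 on GENCODE release 28 (GRCh38), after alignment with STAR 2.5.4, unstranded, with fragments on several genes or several places dropped. Symbols came from GENCODE release 44, and 57754 identifiers matched. The members and gene lists were chosen with earlier results of these data known.

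Genes were tested with edgeR 4.0.16 (filterByExpr with a minimum count of 10, 19621 genes, TMM, quasi-likelihood F test, 1 term per subline over all 15 libraries), with Benjamini-Hochberg adjustment over all genes tested and a threshold of 0.05. CPM were scaled by TMM, SE is of the log2 fold change, and intervals are 95%. Calls were tested on simulated data. Named genes were the C-type genes, the 3 of each cluster with the highest mean CPM, and at each step the 6 called members with the largest rise and the 6 with the largest fall at 0.5 CPM or more. From the other lists, CTCF, RAD21, SMCHD1, DNMT3A, DNMT3B and REST were named, and up to 2 called genes in each direction.

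Depth was 33665716 to 46935279 fragments, where 3 counts, taken as the floor, are 0.0639 to 0.0891 CPM. Floors cover counting error only. The study calls the libraries biological replicates, but neither it nor the labels say whether those of a subline came from separate cultures, so p-values measure the spread between these libraries. Same-numbered libraries did not deviate together (mean correlations between −0.084 and 0.056), so no block was used in the main fit. Alternatives were other scalings, DESeq2 1.42.0, other filters, a 2-fold minimum, a replicate block, fits on 6 libraries and each library left out.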

Additional observations from a re-analysis of the deposited data

Results flagged for a closer look

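For 19 of the 29 named and tested protocadherins the change in the step from CT to CT-ER differed from that in the step from CT-BR to CT-BR-ER, by a test of the difference itself in the same edgeR fit. Of all genes tested 49.7% were called in this test, and many of the 29 were named for the size of their change at these steps, so the count is a description. All values here are differences of log2 fold changes, the step from CT minus the step from CT-BR, so a negative value is a stronger fall from CT. The beta genes with a negative difference were PCDHB2 (−1.17), PCDHB3 (−2.01), PCDHB5 (−1.95), PCDHB16 (−2.16), PCDHB9 (−1.55), PCDHB10 (−0.90), PCDHB11 (−1.22), PCDHB12 (−0.98) and PCDHB14 (−0.63). PCDHB8 (0.78) and PCDHB15 (1.20) had a positive one. In the alpha cluster PCDHA2 (−1.51) was negative, and PCDHA10 (0.93), PCDHA11 (0.49), PCDHA12 (0.68) and PCDHA13 (1.42) were positive. In the gamma cluster PCDHGA2 (−1.27) and PCDHGA10 (−1.31) were negative and PCDHGA9 (1.02) was positive. The 42 neighbours had a median of −0.37.

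For 6 of these genes the call ended when 1 library was left out. For PCDHA2 this held for CT replicates 2 and 3, CT-ER replicates 2 and 3, CT-BR replicate 1 and CT-BR-ER replicate 1, with adjusted p of 0.051 to 0.12. For PCDHA11 it held for CT replicate 1, CT-ER replicates 1 and 2, CT-BR replicate 3 and CT-BR-ER replicate 2 (0.057 to 0.10). For PCDHA13 it held for CT-ER replicate 3, CT-BR replicate 3 and CT-BR-ER replicates 1 and 3 (0.054 to 0.096). For PCDHB9 it held for replicate 3 of CT, CT-ER and CT-BR-ER (0.058 to 0.092). For PCDHGA10 it held for CT replicate 3, CT-ER replicates 1 and 3, CT-BR replicates 2 and 3 and CT-BR-ER replicates 1 and 3 (0.050 to 0.15). PCDHA12, at an adjusted p of 0.047, was lost (0.050 to 0.13) without any 1 of 10 libraries, which were VCaP-T replicates 1 and 2, CT replicates 2 and 3, CT-ER replicates 1 and 3, CT-BR replicates 2 and 3 and CT-BR-ER replicates 2 and 3.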

How the results depend on the processing

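Of the 44 tested protocadherins, 32 were called from VCaP-T to CT, 36 from CT to CT-ER, 10 from CT to CT-BR, 30 from CT-BR to CT-BR-ER and 25 for the difference of both enzalutamide steps. A 2-fold minimum left 19 in the first and 1 in the third comparison. With at least 10 counts required in every library, 25 members were tested and 19, 22 and 6 called in the first 3 comparisons, the cause being that fewer genes were tested. With single libraries left out, the counts ranged from 28 to 33, 33 to 37, 6 to 10, 27 to 31 and 19 to 25. The count of 6 came without CT-BR replicate 1, and the cause was not tested. The replicate block gave 31, 35, 9, 30 and 23, and it changed the call of 2 changes of named members, PCDHA12 in the difference of the steps and PCDHGA10 in CT-BR, although the numbers do not pair the libraries. DESeq2 gave 29, 35, 7, 29 and 21. No direction of a called change reversed under any alternative run. Of 98 called changes of named members, 80 kept their call without each library, and 18 lost it without at least 1. Depth limits the 16 genes under the filter, which had at most 16 fragments in any library.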
